A study of Mus musculus with 6 samples.

Results

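The genes described here are 32 genes of sterol and fatty acid synthesis, out of 22311 genes measured in cultured mouse bone marrow stromal cells. They were chosen by name: 18 encode enzymes that build sterols from acetyl-CoA, 9 encode enzymes that make, lengthen or desaturate fatty acids, and 5 encode proteins that sense, switch on or carry sterols. All 32 had a probe set, 4 had more than 1, and each gene is represented by its brightest probe set, judged by the average of all 6 arrays. Sc4mol is the older symbol of Msmo1.

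Total RNA of 6 cultures of mesenchymal stromal cells, which grow attached to plastic and can turn into bone, fat or cartilage cells, had been hybridised to Affymetrix arrays, 1 array per culture, to compare tetraploid with diploid cells. The tetraploid cultures differed in origin: number I was primary, number II an established line, and number III an artificial tetraploid clone. Of the diploid cultures, number I was clonal and the remaining pair (II, III) primary. All cultures were grown in the same kind of stem cell medium, and ploidy had been assigned by DNA content and checked by spectral karyotyping. The labels give no strain, age or agent, and they do not say whether cultures share an animal or whether the artificial clone derives from a diploid culture used here. A line or clone stands for the cells it was grown from, so a p-value here reflects only how far these 6 cultures spread. Values are log2 expression after RMA, a scale on which a difference of 1 is a 2-fold difference. A probe set's level is compared between cultures only, never with another probe set's level.

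Some arrays stood apart. The interquartile range of all probe sets was 2.75 on diploid III and 3.16 to 3.24 on the other 5 arrays, and diploid III held the highest of the 6 values for 37.9% of the 25917 probe sets tested. Tetraploid II was the 1 culture with Y-linked expression, with Ddx3y at 9.80 against 3.88 to 4.23 elsewhere. Of 11 stromal markers, 7 lay above the array median in tetraploid II, 8 in diploid III and 9 or 10 in the other cultures. In tetraploid II those below it were Thy1, Nt5e, Eng and Lepr. Of 10 myeloid markers, 3 lay above the array median in tetraploid II, 2 in diploid III and 1 in each other culture. Among them, Cd68 was at 7.97 in tetraploid II and at 3.97 to 4.96 elsewhere. Of 10 endothelial markers, 3 lay above it in diploid III (the endothelial cadherin gene Cdh5 was at 11.03 there and at 3.70 to 3.79 elsewhere) and 0 in any other culture. Of 10 adipocyte markers, 6 lay above it in tetraploid II and in diploid III, and 3 or 4 in the other cultures.

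Sterol synthesis starts with the joining of acetyl-CoA units into mevalonate, runs through isoprenoid diphosphates to squalene, and closes squalene into lanosterol, which is trimmed to cholesterol. Most of these genes are switched on together by the transcription factor SREBP-2, encoded by Srebf2, when sterol in the endoplasmic reticulum falls. The escort protein Scap then carries the factor to the Golgi, where it is cut free. Insig proteins hold Scap back when sterols are plentiful. Fatty acid synthesis draws on the same acetyl-CoA and is governed more by the product of Srebf1, and in mesenchymal cells it is prominent during fat cell formation.

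The sterol enzymes were high in tetraploid I and tetraploid II, and close to the diploid level in tetraploid III. All 18 had a higher mean in the tetraploid cultures, where 40.1% of all probe sets did, and 12 of the 18 were at least 2-fold higher, where 2.02% of all probe sets were. The median log2 difference of the 18 genes, tetraploid minus diploid, was 1.41, against -0.04 over all probe sets. None passed after adjustment over all probe sets (limma, Benjamini-Hochberg, smallest adjusted p = 0.876), as 0 of the 25917 probe sets did. At an unadjusted p under 0.05, 1 of 18 was higher, where 3.08% of all probe sets were. Tetraploid I lay above all 3 diploid cultures for 17 of the 18 genes, where it did so for 20.0% of all probe sets. Tetraploid II did for 18 of 18, against 21.6% of probe sets. Tetraploid III did for 2 of 18, against 15.1%, lay within the diploid range for 13 and below it for 3, against 22.7% of probe sets. At least 2-fold above the diploid mean were 17 of 18 genes in tetraploid I (3.79% of probe sets), 15 in tetraploid II (5.15%) and 0 in tetraploid III (1.45%). These counts share the same 3 diploid cultures.

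**Figure D1:**
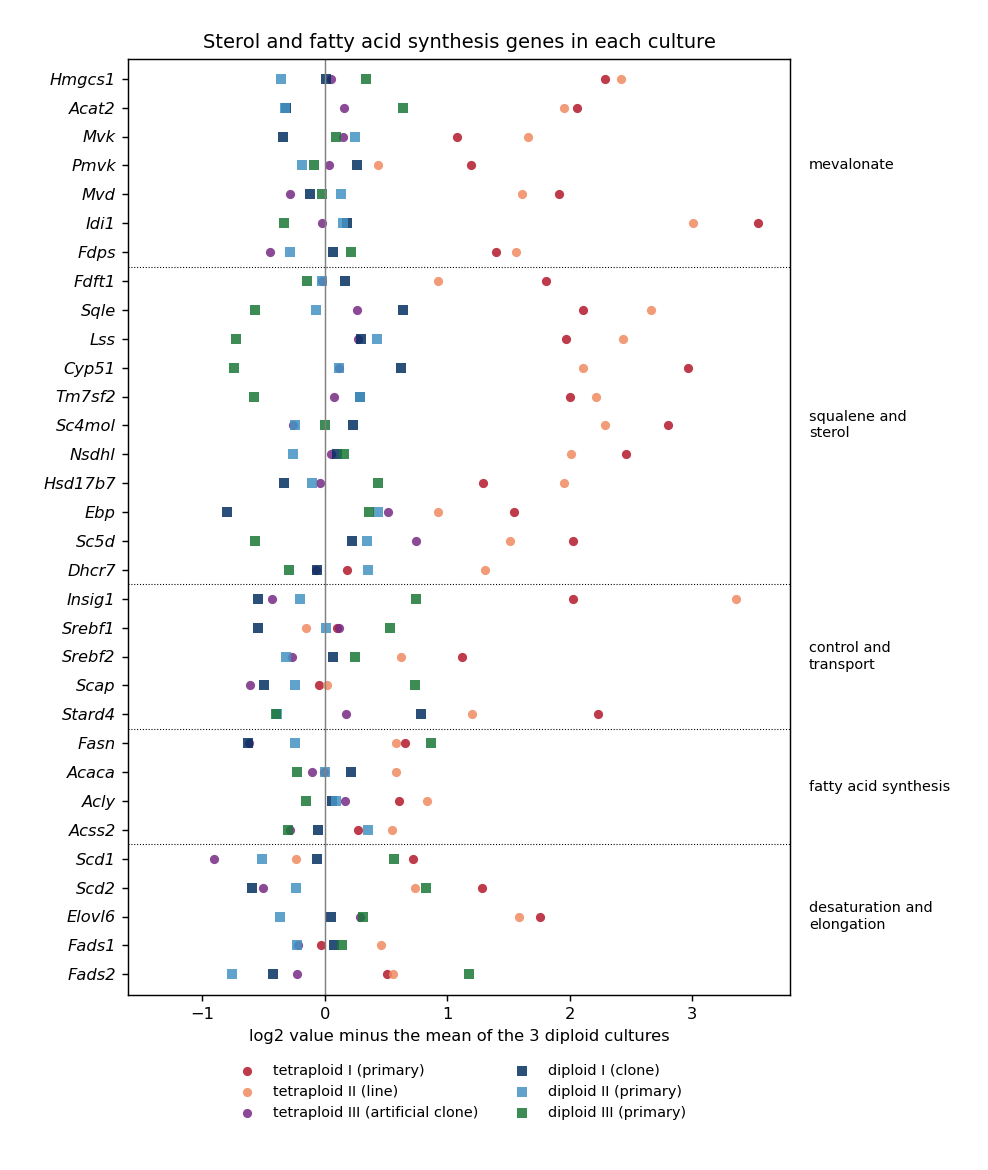
Each row is 1 gene and each point 1 culture. The horizontal axis is the log2 value minus the mean of the 3 diploid cultures, so a value of 1 is 2-fold above it. Circles are tetraploid and squares diploid cultures. Tetraploid I and II lie right of the diploid points for most sterol genes, while tetraploid III lies among them.

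Among the 7 genes of the mevalonate steps, from acetyl-CoA to farnesyl diphosphate, tetraploid I and tetraploid II each lay above every diploid culture for all 7. Idi1, the isomerase that interconverts the isoprene units, had the largest difference. Its values were 10.02, 9.48 and 6.46 in tetraploid cultures I to III, and 6.66, 6.63 and 6.15 in diploid cultures I to III. Tetraploid I and II were therefore 11.6-fold and 8.02-fold above the diploid mean, and tetraploid III lay inside the diploid range. The group means were 8.65 ± 1.92 and 6.48 ± 0.29 (SD, n = 3 each), a log2 difference of 2.17 (SE 0.95) that did not pass (limma, adjusted p = 0.876). The other Idi1 probe set gave 2.02 (SE 0.92).

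Mvk, mevalonate kinase, had the smallest unadjusted p of these steps. It was at 6.68, 7.26 and 5.75 in tetraploid cultures I to III and at 5.26, 5.85 and 5.69 in diploid cultures I to III. Tetraploid II was the highest, and tetraploid III lay just below diploid II. The means were 6.56 ± 0.76 and 5.60 ± 0.30 (SD, n = 3 each), and the log2 difference was 0.96 (SE 0.41, limma, unadjusted p = 0.0595, adjusted p = 0.876). The remaining genes were Hmgcs1, which forms HMG-CoA, Acat2, the cytosolic thiolase, Pmvk and Mvd, which follow mevalonate kinase, and Fdps, farnesyl diphosphate synthase. Over all 7 genes of these steps, tetraploid I lay 1.08 to 3.53 above the diploid mean on the log2 scale, tetraploid II 0.43 to 3.003 above it, and tetraploid III between -0.45 and 0.16. Pmvk gave the 0.43 of tetraploid II, against 1.19 in tetraploid I.

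Among the 11 genes of the squalene and sterol steps, tetraploid II lay above every diploid culture for 11 and tetraploid I for 10, while tetraploid III did for 2. Sc5d, a sterol desaturase late in the pathway, was at 10.00, 9.49 and 8.72 in tetraploid cultures I to III and at 8.20, 8.32 and 7.41 in diploid cultures I to III. It was 1 of 2 sterol genes whose groups did not overlap. The means were 9.40 ± 0.65 and 7.98 ± 0.50 (SD, n = 3 each), and the log2 difference was 1.43 (SE 0.41, limma, unadjusted p = 0.0143, adjusted p = 0.876). Ebp, a sterol isomerase, was the other gene without overlap. It was at 8.86, 8.25 and 7.84 in the tetraploid cultures and at 6.53, 7.76 and 7.68 in the diploid cultures. Tetraploid III lay just above diploid II. The means were 8.32 ± 0.52 and 7.32 ± 0.69 (SD, n = 3 each), and the log2 difference was 0.99 (SE 0.43, limma, unadjusted p = 0.0626, adjusted p = 0.876). Across all 32 genes, 3 had groups that did not overlap with the tetraploid side higher, where 4.97% of all probe sets did.

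Cyp51, the demethylase that acts on lanosterol, had the largest difference of these steps. Its values were 10.46, 9.61 and 7.61 in tetraploid cultures I to III and 8.12, 7.62 and 6.76 in diploid cultures I to III. Tetraploid I stood 7.79-fold and tetraploid II 4.31-fold above the diploid mean, and diploid III was the lowest culture. The means were 9.23 ± 1.46 and 7.50 ± 0.69 (SD, n = 3 each), and the log2 difference was 1.73 (SE 0.79, limma, adjusted p = 0.876). The other genes were Fdft1 (squalene synthase), Sqle (squalene epoxidase), Lss (lanosterol synthase) and the trimming enzymes Tm7sf2, Sc4mol, Nsdhl, Hsd17b7 and Dhcr7. Their log2 differences, with those of Sc5d, Ebp and Cyp51, ran from 0.47 in Dhcr7 to 1.73 in Cyp51. Dhcr7, the enzyme of the last reduction, was the 1 sterol gene for which tetraploid I (5.58) lay within the diploid range (5.10 to 5.75), while tetraploid II (6.70) lay above it. Dhcr7 is named here because of these values.

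Tetraploid I and tetraploid II were alike in size and differed gene by gene. The median over the 18 sterol genes of the value minus the diploid mean was 1.99 for tetraploid I, 1.96 for tetraploid II and 0.05 for tetraploid III. Tetraploid I held the highest value for 10 genes (12.8% of all probe sets) and tetraploid II for the other 8 (15.9%). Diploid III held the lowest value for 7 of the 11 squalene and sterol genes, where it did so for 22.8% of all probe sets. Among the mevalonate genes it held the lowest value for 1 of 7. Of all 32 genes it held the highest value for 4 (Srebf1, Scap, Fasn and Fads2), where it did so for 37.9% of probe sets.

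The sequence before the start of each gene was searched for 3 short motifs, since genes that move together invite a look at their promoters. Promoters of 250 bases before the annotated start were taken from RefSeq (build GRCm38.p6), which gave a promoter for 25 of the 32 genes. The motif TCACNCCAC, a form of the element that SREBPs bind, was found on either strand in 1 of 15 sterol genes with a promoter, in Hmgcs1, and in 0 of 6 fatty acid genes. It is in 1.22% of all 27025 genes of the table. CCAAT, the box bound by NF-Y, a factor known to act beside SREBPs, was found on either strand in 14 of 15 sterol genes and in 2 of 6 fatty acid genes, against 37.5% of all genes. CANNTG, the E-box, was found in 9 of 15 sterol genes and 2 of 6 fatty acid genes, against 69.3% of all genes. None of the 3 motifs contains another, though matches may share bases. A match is a run of letters and not a shown site, and a missing match says only that those letters are not in the window.

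The promoters below are those of Hmgcs1, which holds the rare motif, of the 5 sterol genes whose values are given in full, and of Acly from the fatty acid branch, which holds none of the 3 motifs. Each is written 5' to 3' on the gene's strand and ends at the base before the start, and the set was chosen after the matches were seen. Fasn and Acss2, the fatty acid genes with CCAAT, are not printed, so Acly does not stand for its branch. Capitals mark CCAAT, written ATTGG where it lies on the other strand, and TCACNCCAC.
Hmgcs1, chr13:119690101-119690350, plus strand: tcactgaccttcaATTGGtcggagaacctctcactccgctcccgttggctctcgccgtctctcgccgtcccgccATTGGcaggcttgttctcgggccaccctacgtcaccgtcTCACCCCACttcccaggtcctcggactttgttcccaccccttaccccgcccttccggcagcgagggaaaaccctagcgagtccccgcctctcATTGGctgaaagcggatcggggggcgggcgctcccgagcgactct
Mvk, chr5:114444019-114444268, plus strand: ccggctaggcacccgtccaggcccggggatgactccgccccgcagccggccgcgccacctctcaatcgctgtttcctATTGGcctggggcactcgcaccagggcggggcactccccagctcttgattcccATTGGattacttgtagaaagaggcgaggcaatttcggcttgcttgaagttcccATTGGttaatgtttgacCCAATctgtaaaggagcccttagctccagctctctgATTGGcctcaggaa
Idi1, chr13:8885356-8885605, plus strand: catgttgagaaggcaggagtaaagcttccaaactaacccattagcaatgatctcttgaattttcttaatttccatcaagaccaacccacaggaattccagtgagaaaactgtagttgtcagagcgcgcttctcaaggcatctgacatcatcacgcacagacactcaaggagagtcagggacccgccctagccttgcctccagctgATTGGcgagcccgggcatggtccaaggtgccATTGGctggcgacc
Cyp51, chr5:4104698-4104947, minus strand: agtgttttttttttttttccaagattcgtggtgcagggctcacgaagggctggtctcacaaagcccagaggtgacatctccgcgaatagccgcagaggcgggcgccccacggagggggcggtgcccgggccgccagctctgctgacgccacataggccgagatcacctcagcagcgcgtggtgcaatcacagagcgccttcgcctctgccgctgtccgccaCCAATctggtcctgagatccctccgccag
Ebp, chrX:8193513-8193762, minus strand: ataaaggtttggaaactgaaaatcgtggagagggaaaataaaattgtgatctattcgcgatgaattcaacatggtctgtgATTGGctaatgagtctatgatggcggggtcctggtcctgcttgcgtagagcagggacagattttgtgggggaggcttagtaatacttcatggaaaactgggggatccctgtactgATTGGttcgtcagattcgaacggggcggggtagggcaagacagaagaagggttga
Sc5d, chr9:42264301-42264550, minus strand: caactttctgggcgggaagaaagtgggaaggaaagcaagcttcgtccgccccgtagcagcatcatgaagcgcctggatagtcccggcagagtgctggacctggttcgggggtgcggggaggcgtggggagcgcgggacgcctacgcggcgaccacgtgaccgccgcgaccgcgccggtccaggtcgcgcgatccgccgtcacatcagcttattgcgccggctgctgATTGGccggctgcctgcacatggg
Acly, chr11:100528001-100528250, minus strand: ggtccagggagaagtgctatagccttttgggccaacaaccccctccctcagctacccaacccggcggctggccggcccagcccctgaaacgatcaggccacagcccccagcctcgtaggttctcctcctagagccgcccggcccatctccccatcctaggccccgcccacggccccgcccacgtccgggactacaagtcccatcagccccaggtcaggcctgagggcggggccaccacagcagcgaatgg
In Hmgcs1 the rare motif begins 137 bases before the start, between CCAAT boxes that begin 176 and 45 bases before it. Mvk has 5 CCAAT boxes, Idi1 has 2 and Ebp has 2. The box nearest to the start begins 14 bases before it in Mvk and Idi1, 24 in Sc5d and 29 in Cyp51.

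RNA levels of the genes that sense, control or carry sterols did not move as a unit. Insig1, whose gene is itself switched on by SREBPs, was at 10.48, 11.81 and 8.03 in tetraploid cultures I to III and at 7.91, 8.25 and 9.19 in diploid cultures I to III. Tetraploid II was highest, 10.2-fold above the diploid mean, and diploid III was the highest diploid culture. The means were 10.10 ± 1.92 and 8.45 ± 0.67 (SD, n = 3 each), and the log2 difference was 1.65 (SE 0.997, limma, adjusted p = 0.876). Stard4, which carries cholesterol between membranes, was at 8.45, 7.41 and 6.39 against 6.9996, 5.82 and 5.81. Tetraploid I was 4.70-fold above the diploid mean, tetraploid III lay below diploid I, the means were 7.42 ± 1.03 and 6.21 ± 0.68 (SD, n = 3 each), and the log2 difference was 1.20 (SE 0.61, limma, adjusted p = 0.876).

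Of the factors themselves, Srebf2 was at 9.59, 9.10 and 8.21 in tetraploid cultures I to III and at 8.54, 8.15 and 8.72 in diploid cultures I to III. Tetraploid I and II lay above the diploid cultures, the means were 8.97 ± 0.70 and 8.47 ± 0.29 (SD, n = 3 each), and the log2 difference was 0.49 (SE 0.38, limma, adjusted p = 0.876). Srebf1 was at 7.21, 6.95 and 7.22 against 6.56, 7.12 and 7.64. All 3 tetraploid values lay inside the diploid range, the means were 7.13 ± 0.15 and 7.10 ± 0.54, and the log2 difference was 0.02 (SE 0.28, limma, adjusted p = 0.986). Scap was at 8.40, 8.47 and 7.84 against 7.95, 8.21 and 9.18, with diploid III the highest and tetraploid III the lowest culture. The means were 8.24 ± 0.34 and 8.45 ± 0.65, and the log2 difference was -0.21 (SE 0.37, limma, adjusted p = 0.900).

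**Figure D2:**
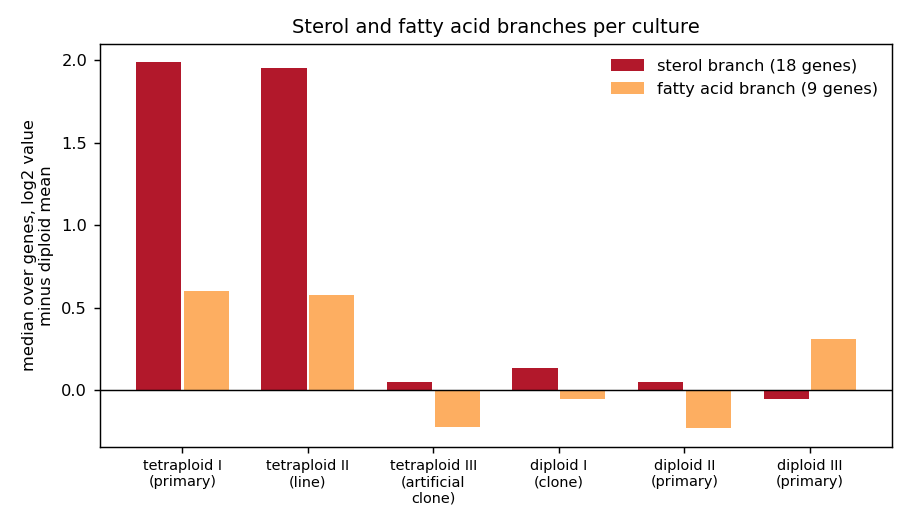
Bars give, for each culture, the median over genes of the log2 value minus the diploid mean, for the 18 sterol genes and the 9 fatty acid genes. The sterol bars are 1.99 and 1.96 in tetraploid I and II and between -0.05 and 0.13 in the other cultures. The fatty acid bars are 0.60 and 0.58 in tetraploid I and II and 0.31 in diploid III.

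The fatty acid branch shared the pattern in part. The tetraploid mean was the higher for 8 of its 9 genes (40.1% of all probe sets), 1 of them at least 2-fold (2.02%), and 2 were higher at an unadjusted p under 0.05 (3.08%). The median log2 difference was 0.21, against 1.41 for the sterol branch and -0.04 for all probe sets. Per culture, the median over the 9 genes of the value minus the diploid mean was 0.60, 0.58 and -0.23 in tetraploid cultures I to III and -0.06, -0.23 and 0.31 in diploid cultures I to III. The sterol median minus the fatty acid median was 1.38 for both tetraploid I and tetraploid II and 0.27 for tetraploid III. It was 0.19 and 0.28 in diploid I and II and -0.36 in diploid III. There the 5 desaturation and elongation genes had a median of 0.57, and the 4 fatty acid synthesis genes one of -0.19.

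Among the enzymes that supply and join the carbon units, Acly makes cytosolic acetyl-CoA from citrate for both branches. It was at 9.53, 9.76 and 9.09 in tetraploid cultures I to III and at 8.99, 9.02 and 8.78 in diploid cultures I to III, without overlap. The means were 9.46 ± 0.34 and 8.93 ± 0.13 (SD, n = 3 each), and the log2 difference was 0.53 (SE 0.19, limma, unadjusted p = 0.0358, adjusted p = 0.876). Acss2, which makes acetyl-CoA from acetate, was at 6.32, 6.59 and 5.76 against 5.98, 6.40 and 5.74. Only tetraploid II exceeded the diploid range, the means were 6.22 ± 0.42 and 6.04 ± 0.33, and the log2 difference was 0.18 (SE 0.27, limma, adjusted p = 0.890). Acaca, which makes malonyl-CoA, was at 7.89, 8.48 and 7.80 against 8.11, 7.90 and 7.67, with tetraploid II the highest and the groups overlapping. The means were 8.06 ± 0.37 and 7.90 ± 0.22, the log2 difference was 0.16 (SE 0.22, limma, adjusted p = 0.884), and its other probe set gave 0.12 (SE 0.19).

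Fasn, the synthase that builds palmitate, was highest in a diploid culture. It was at 8.99, 8.91 and 7.71 in tetraploid cultures I to III and at 7.71, 8.09 and 9.20 in diploid cultures I to III. Tetraploid I, tetraploid II and diploid III formed the upper values, the means were 8.54 ± 0.71 and 8.33 ± 0.77 (SD, n = 3 each), and the log2 difference was 0.21 (SE 0.52, limma, adjusted p = 0.931).

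Elovl6, which lengthens palmitate, came closest to the sterol genes. It was at 8.68, 8.52 and 7.21 in tetraploid cultures I to III and at 6.98, 6.56 and 7.24 in diploid cultures I to III. Tetraploid I and II were 3.37-fold and 3.01-fold above the diploid mean and tetraploid III lay just below diploid III. The means were 8.14 ± 0.80 and 6.93 ± 0.34 (SD, n = 3 each), a log2 difference of 1.21 (SE 0.43, limma, unadjusted p = 0.0343, adjusted p = 0.876).

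The desaturases did not separate the ploidy groups. Scd2, a desaturase of saturated fatty acids, was at 12.15, 11.60 and 10.36 in the tetraploid cultures and at 10.27, 10.63 and 11.69 in the diploid cultures, with means of 11.37 ± 0.92 and 10.87 ± 0.74 and a log2 difference of 0.51 (SE 0.58, limma, adjusted p = 0.877). Scd1, its close paralog, was at 10.10, 9.14 and 8.47 against 9.32, 8.87 and 9.94, with means of 9.24 ± 0.82 and 9.38 ± 0.54 and a log2 difference of -0.14 (SE 0.49, limma, adjusted p = 0.954). Tetraploid I and diploid III were the highest cultures for both genes, and tetraploid III was the lowest for Scd1. Probes of the pair may share sequence, so their values are not fully separate. Fads1 and Fads2 desaturate polyunsaturated fatty acids. Fads2 was at 9.76, 9.81 and 9.03 against 8.83, 8.50 and 10.43, so that diploid III was the highest and the other diploid cultures the lowest. The means were 9.53 ± 0.44 and 9.25 ± 1.03, and the log2 difference was 0.28 (SE 0.56, limma, adjusted p = 0.913). Fads1 was at 9.99, 10.48 and 9.80 against 10.09, 9.79 and 10.16, with 1 tetraploid culture above the diploid range, means of 10.09 ± 0.35 and 10.02 ± 0.20 and a log2 difference of 0.07 (SE 0.21, limma, adjusted p = 0.941).

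**Figure D3:**
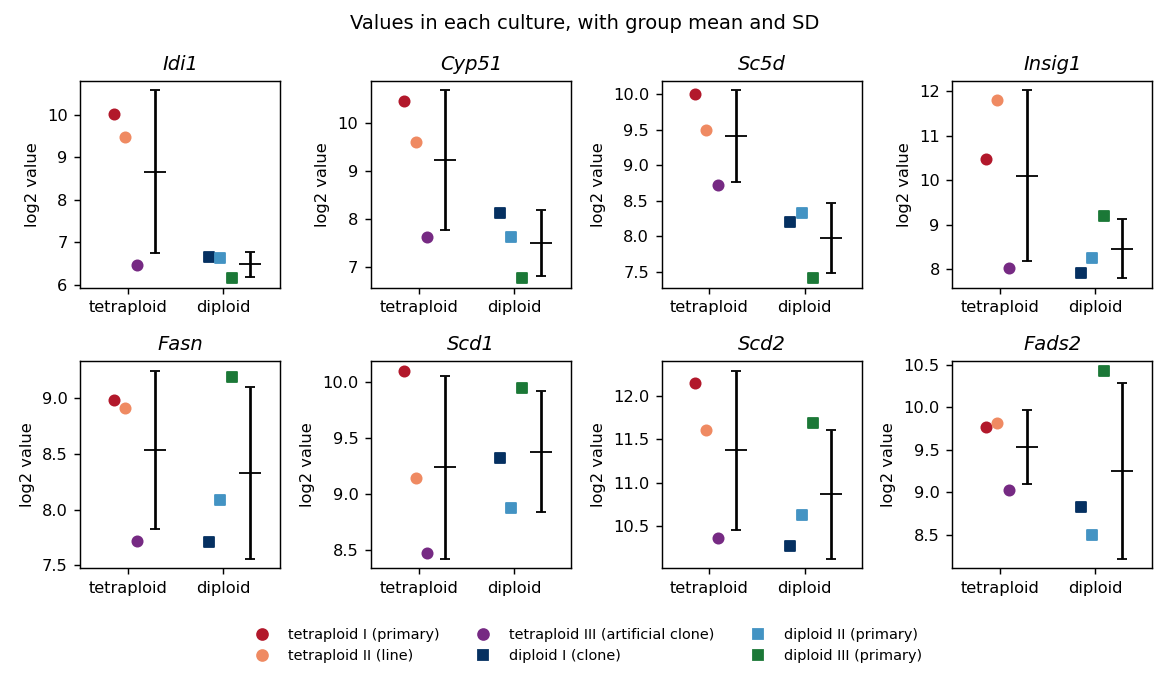
Log2 values of 8 members in each culture, with the mean and SD of each group (n = 3) as a bar beside the points. The vertical axes do not start at 0 and differ between panels. In the upper row (Idi1, Cyp51, Sc5d, Insig1) tetraploid I and II are highest, and in the lower row (Fasn, Scd1, Scd2, Fads2) diploid III lies near them or above them.

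Cell type markers moved with some of these values. Mean levels of the 10 adipocyte markers were 5.18, 7.22 and 4.79 in tetraploid cultures I to III and 4.31, 4.52 and 6.51 in diploid cultures I to III. Among them, Pparg, the regulator of fat cell formation, was at 9.76 in tetraploid II, 8.80 in diploid III and 7.72 in tetraploid I, and at 5.34 to 5.83 in the other cultures. Plin1 and Cidec, lipid droplet genes of mature fat cells, and Retn lay below the array median in every culture. Other markers of the list did not. Plin4, also a lipid droplet gene, was at 9.47 in tetraploid II and 6.64 in diploid III, and at 3.82 to 4.44 elsewhere. Fabp4 was at 9.66 and 10.78 in those cultures and at 4.43 to 7.24 elsewhere. Adipoq was at 6.41 in tetraploid II and at 3.83 to 4.43 elsewhere. The sterol median was 1.99 in tetraploid I and 1.96 in tetraploid II, and the mean adipocyte marker level of both lay above those of diploid I and II. The mean levels of tetraploid III and diploid III did so too, with sterol medians of 0.05 and -0.05. That of diploid III also lay above tetraploid I. As the median over markers of the value minus the diploid mean, tetraploid I was at -0.11 and tetraploid II at 2.61. In diploid III, where the fatty acid median was 0.31, the median adipocyte marker lay at 1.09, and the part of such cells, or of cells with Cdh5, in the sterol and fatty acid values was not tested. In RNA of whole cultures, more cells of a type and more RNA per cell cannot be told apart.

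**Figure D4:**
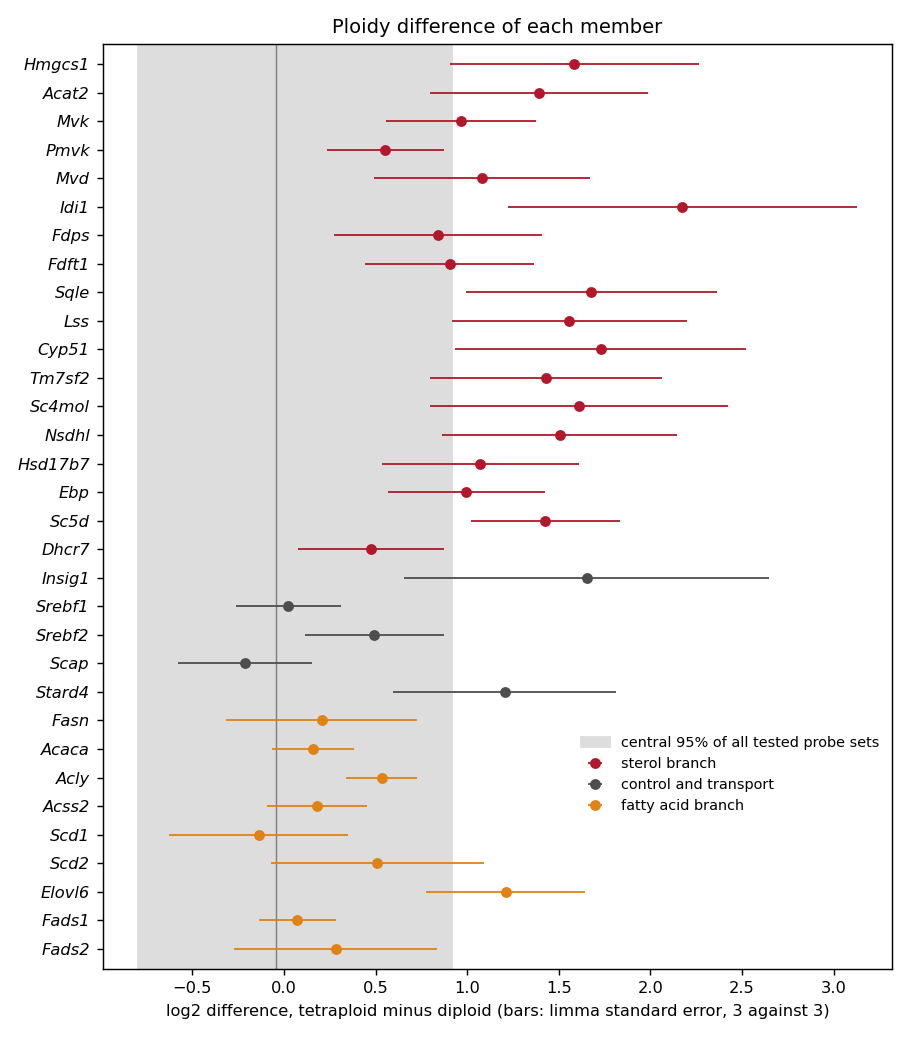
Points give the log2 difference, tetraploid minus diploid, of each gene, and bars its limma standard error. The grey band holds the central 95% of the differences of all probe sets tested, from -0.79 to 0.92. Of the 18 sterol genes 14 lie to the right of the band, as do Insig1, Stard4 and Elovl6.

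The count of genes with an unadjusted p under 0.05 depended on which cultures entered. With all 6 it was 3 of 32 (Sc5d, Acly and Elovl6), where 5.14% of all probe sets were in either direction, and 0 passed after adjustment (limma, smallest adjusted p = 0.876). Without tetraploid III it was 22 of 32, 17 of them sterol genes, where 4.60% of all probe sets were higher at that p, and again 0 passed, where 0.00386% of probe sets did (limma, smallest adjusted p of the 32 = 0.200). Leaving out the culture that lacks the higher values favours such a count. It was 1 without tetraploid I, tetraploid II, diploid I or diploid II, and 2 without diploid III. For these counts the share of all probe sets was not taken.

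Origin is partly mixed with ploidy, so the ploidy difference was also taken within each origin. In primary cultures (tetraploid I against diploid II and III) the median log2 difference of the sterol genes was 2.01 and that of the fatty acid genes 0.34. For lines and clones (diploid I as the control of tetraploid II and III) they were 0.88 and 0.44. This sterol value averages unlike cultures. Against the diploid mean, the sterol median was 1.96 in tetraploid II, 0.05 in tetraploid III and 0.13 in diploid I, and 1.99 in the primary tetraploid I. All 18 sterol genes were higher in the primary comparison and 17 in the other. The share of all probe sets was not taken for either comparison, so these counts cannot set the sterol genes apart from all probe sets. The difference between origins passed for 0 of 32 genes (limma, smallest adjusted p = 0.9998), and 2 of 32, Stard4 and Pmvk, had an unadjusted p under 0.05, where 2.68% of all probe sets did. Stard4 differed by 2.63 between primary cultures and by -0.10 between lines and clones, and Pmvk by 1.33 and -0.03. Each comparison has 1 culture on one side, which was assumed to vary like the others.

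Other genes of the same control system are those that process SREBPs or feed back on sterol synthesis. The tetraploid mean was the higher for 14 of 15 genes of SREBP processing and feedback (40.1% of all probe sets), and 2 were higher at an unadjusted p under 0.05, where 3.08% of all probe sets were, with a median log2 difference of 0.48. Rdh11, a retinol dehydrogenase, was at 8.24, 8.47 and 7.37 in tetraploid cultures I to III and at 6.97, 7.13 and 7.18 in diploid cultures I to III (log2 difference 0.93, SE 0.30, limma, adjusted p = 0.876). Rnf139, a ubiquitin ligase of the endoplasmic reticulum, differed by 0.42 (SE 0.14, limma, adjusted p = 0.876), also without overlap.

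Other lists hold genes that use, move or store sterols, with 40.1% of all probe sets higher by their mean and 3.08% higher at an unadjusted p under 0.05. Of 13 genes of sterol uptake, transport and storage, 7 were higher by their mean, 1 at an unadjusted p under 0.05, and the median difference was 0.12. Npc2, which hands cholesterol out of the lysosome, differed by 0.38 (SE 0.13) and Vldlr, a lipoprotein receptor gene, by -2.18 (SE 1.34). Of 11 liver X receptor targets and efflux genes, 7 were higher, 1 at that p, and the median difference was 0.35. Mylip, whose product degrades lipoprotein receptors, differed by 2.43 (SE 0.87), and Nr1h2, a liver X receptor, by -0.34 (SE 0.15). Mylip was at 8.21, 8.57 and 7.11 in tetraploid cultures I to III and at 5.04, 7.31 and 4.25 in diploid cultures I to III, so that diploid II lay above tetraploid III. Of 12 genes of the isoprenoid side branch, which share farnesyl diphosphate with the sterol genes, 8 were higher, 0 at that p, and the median difference was 0.09. Nus1, a subunit of the dolichol-forming enzyme, differed by 0.58 (SE 0.28) and Zmpste24, a protease of prenylated proteins, by 0.27 (SE 0.14). None of these passed after adjustment (limma, adjusted p = 0.876 for each gene named).

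Other lists hold genes around fatty acids outside the branch, and the same shares of all probe sets, 40.1% and 3.08%, stand beside their counts. Of 24 genes of fatty acid supply and lipid assembly, 15 had a higher mean, 0 at an unadjusted p under 0.05, and 1 was lower at that p, where 2.06% of all probe sets were, with a median of 0.06. Dgat1, an enzyme of triglyceride synthesis, differed by -0.51 (SE 0.16) without overlap and Acsl1, an acyl-CoA synthetase, by 0.60 (SE 0.29). Of 19 fatty acid oxidation genes, 13 were higher, 1 at that p, and the median difference was 0.06. Acadm, a mitochondrial dehydrogenase, was at 9.98, 9.36 and 8.61 in tetraploid cultures I to III and at 8.25, 8.48 and 8.08 in diploid cultures I to III (log2 difference 1.04, SE 0.36), and Hadhb, a subunit of the mitochondrial trifunctional protein, differed by 0.52 (SE 0.27). None passed after adjustment (limma, adjusted p = 0.876 for each gene named).

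Values of glycolysis and hypoxia genes were low in the tetraploid cultures in which the sterol values were high. For 18 glycolysis and hypoxia genes the median of the value minus the diploid mean was -0.97 for tetraploid I, -0.96 for tetraploid II and -0.03 for tetraploid III, and -0.13 to 0.03 in the diploid cultures. None of the 18 passed after adjustment, and 4 were lower at an unadjusted p under 0.05, where 2.06% of all probe sets were. Gpi1, a glycolytic isomerase, differed by -0.97 (SE 0.26, limma, adjusted p = 0.876). Egln3, an oxygen sensor, was at 4.90, 4.21 and 7.53 in tetraploid cultures I to III and at 8.19, 8.21 and 9.65 in diploid cultures I to III. For 10 proliferation genes the median was -0.50, -1.20 and -0.53 in tetraploid cultures I to III and -0.32 to 0.36 in the diploid cultures, and 3 of the 10 were lower at that p (2.06% of all probe sets). Tetraploid III and tetraploid I had like proliferation medians, unlike their sterol medians. Plk1, a mitotic kinase, differed by -1.51 (SE 0.27) and Mki67, a marker of cycling cells, by -1.06 (SE 0.21), both without overlap (limma, adjusted p = 0.876 for each). The part of oxygen supply, density or growth rate in the sterol values was not tested, and the labels give none of these.

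**Figure D5:**
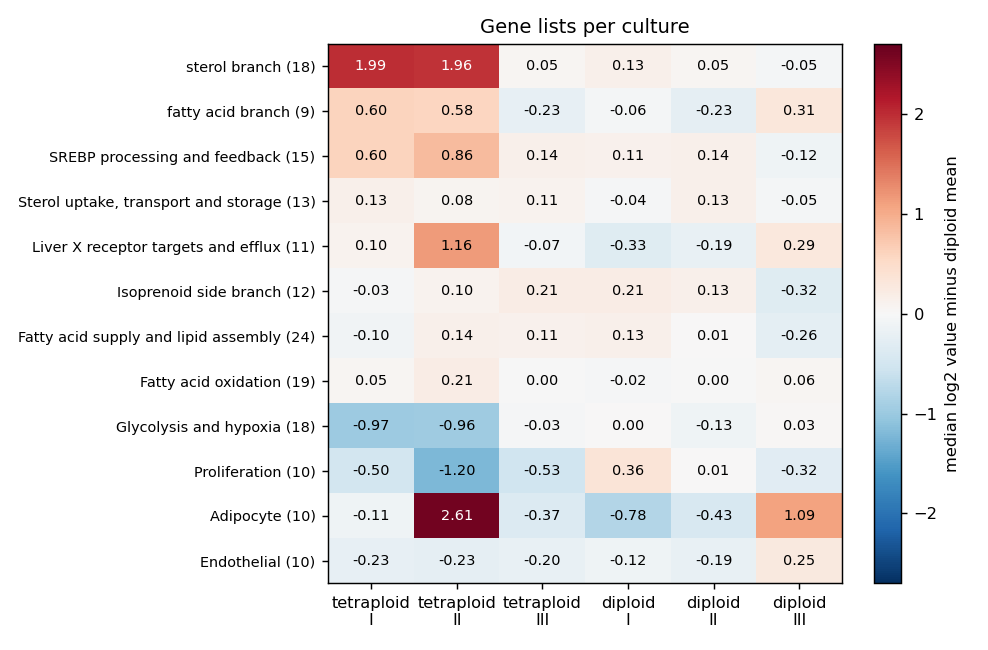
Each cell gives the median over a list's genes (number in brackets) of the log2 value minus the diploid mean, by culture, from blue (lower) to red (higher). The sterol row is near 2 in tetraploid I and II and the glycolysis and hypoxia row near -1 in the same cultures, while the adipocyte row is highest in tetraploid II (2.61) and diploid III (1.09).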

How the data were processed

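Expression of 6 cultures, 3 tetraploid and 3 diploid as the titles name them, had been measured on Affymetrix arrays. The deposited value table held log2 expression for 35399 probe sets, from 2.73 to 14.1, and per the submitters' processing notes RMA and Partek were used. RMA compresses folds near the lower end of the scale. The authors' deposited comparison table gave gene symbols, unadjusted p-values and a signed score of fold, diploid over tetraploid, per the file headers. On the log2 scale these folds match differences of the deposited values to within 7.87e-05. Its 6 columns of per-sample values matched no label and were not used. Genome build and tool versions were not given in the sources used here.

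Symbols were updated through RefSeq (GRCm38.p6). Differences were tested by limma 3.58.1 (lmFit and eBayes, R 4.3.3) on 25917 probe sets with a symbol, tetraploid minus diploid, two-sided, with Benjamini-Hochberg adjustment over all of them and no filter. It was checked on simulated data. Tables and figures used Python 3.11.15 and matplotlib 3.10.9. The number of arrays limits precision. Genes given in full were the smallest p and the largest difference of each role, those without overlap, all control genes and the fatty acid branch. Other lists give their 2 smallest p. The members and lists were chosen with earlier results of these data known, and no list was tested as a set. The alternatives were normalisation, centring, a filter on dim probe sets, variance models, array weights, blocks, left-out replicates, other probe set choices and the authors' deposited values.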

Additional observations from a re-analysis of the deposited data

Results flagged for a closer look

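Scd1 was picked out because every tetraploid culture of 1 origin lay on the higher side of its diploid controls and every one of the other origin on the lower side. Tetraploid I (10.10) lay above both primary diploid cultures (8.87 and 9.94), a log2 difference of 0.696. Tetraploid II and III (9.14 and 8.47) lay below diploid I (9.32), a difference of -0.512. The test of the difference between origins gave 1.21 on the log2 scale and did not pass (limma, unadjusted p = 0.229, adjusted p = 0.9998).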

How the results depend on the processing

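With all 6 cultures 3 of 32 genes had an unadjusted p under 0.05 (limma). The count was 1 after quantile normalisation, 1 in an ordinary linear model and 1 in the authors' deposited table, 8 with the filter on dim probe sets, 9 with a mean-variance trend, 5 with array weights, and 1 to 22 when 1 replicate was left out. With the repeat number as a replicate block it was 8. The share of all probe sets at that p was taken only for the main fit (5.14%) and without tetraploid III (4.60% higher). The other counts have no such share beside them, so they cannot set these genes apart from all probe sets. The labels do not say that repeat numbers pair the cultures. Across probe sets, deviations of same-numbered cultures from their group means correlated at -0.12, -0.15 and -0.34. No tetraploid culture correlated best with the diploid culture of its number. The deviations of the 3 cultures of a group sum to 0, which makes some negative correlations unavoidable. These values therefore cannot show whether any cultures are paired. Under these 17 alternatives 0 genes passed after adjustment (limma and the authors' deposited table, smallest adjusted p = 0.200). The median of the sterol branch was 1.02 to 1.89 with 1 replicate left out, and that of the fatty acid branch was 0.019 to 0.53, the highest value being without tetraploid III. The sterol minus fatty acid value of each culture moved by less than the diploid spread under the 4 alternatives tried for it. Centring shifts both branches alike and the filter removed no member, so neither could move this value. Averaging probe sets could change only the 4 members that have more than 1, which leaves quantile normalisation as the main trial.

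Of 544 values of single genes under alternatives, 17 turned sign, in 8 genes that had not passed. Many of the 544 could not turn. The filter, the variance models, the block, the test on all probe sets and the authors' deposited values repeat the main difference of means, apart from rounding. Srebf1 was at -0.043 after quantile normalisation, Scap at 0.081 and Scd1 at 0.14 with array weights, and Scd1 at 0.092 with origin as a covariate. With 1 replicate left out the ranges were -0.25 to 0.29 for Srebf1, -0.46 to 0.15 for Scap, -0.57 to 0.25 for Scd1, -0.11 to 0.64 for Fasn, -0.050 to 0.29 for Acaca, -0.0026 to 0.41 for Acss2, -0.12 to 0.22 for Fads1 and -0.10 to 0.87 for Fads2. The causes of these shifts were not tested. All 18 sterol genes kept their direction under every alternative that could change it.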

Other observations

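Some lipid genes outside the members were low in tetraploid I and II, where the sterol genes were high, and they were picked out after their values were seen. Of those named here, only Vldlr had tetraploid I and II as its lowest cultures. Vldlr was at 4.43 and 6.18 in tetraploid I and II, at 9.68 in tetraploid III and at 9.57, 8.71 and 8.57 in diploid cultures I to III (log2 difference -2.18, SE 1.34, limma, adjusted p = 0.876). Tetraploid I lay below the median of its array (4.60), which limits how well the difference is measured. Stard5, a sterol carrier gene, was at 5.45, 6.99 and 10.22 in tetraploid cultures I to III and at 10.49, 10.11 and 6.62 in diploid cultures I to III, with diploid III beside the low cultures. Dgat2, a gene of triglyceride synthesis, was at 5.28, 6.98 and 9.12 against 9.11, 8.28 and 6.54, with the same 3 cultures low as for Stard5.

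Among liver X receptor targets, tetraploid II and diploid III were the highest cultures for Abca1, Apoe, Nr1h3 and Abcg1. These were picked from the list of 11 after their values were seen, and no other gene of it had this pair highest. Ch25h was lowest in tetraploid II (3.62), and Mylip and Cyp27a1 were lowest in diploid III (4.25 and 4.52). In diploid III, Nr1h3 and Abcg1 lay below the median of the array (4.78). Abca1, a cholesterol exporter, was at 7.44 and 8.66 in these cultures and at 4.37 to 6.28 in the others. Apoe, a lipoprotein gene, was at 8.19 and 7.42 in these cultures and at 4.95 to 5.55 in the others. Nr1h3, a liver X receptor gene, was at 5.66 and 4.72 in these cultures and at 3.85 to 4.28 in the others. Abcg1, another exporter, was at 5.27 and 4.32 in these cultures and at 3.92 to 4.10 in the others.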
